A study of Homo sapiens with 6 samples.

Results

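Chromosome 15 of SNU-C1, a colon cancer cell line, was described from all pairs of 40-kb bins within the chromosome, next to the same pairs in SW480 (also from colon cancer), HCC1954 (breast cancer) and OE33 (esophageal adenocarcinoma). The chromosome held 2564 bins and 3285766 of the 147781476 bin pairs within chromosomes 1 to 22 and X. It was selected on these same maps, because coverage, long-range contacts and boundaries there had already been seen to differ in SNU-C1, so all values that describe the difference are given as descriptions and carry no test. In situ Hi-C, which ligates DNA ends that lie close together in the nucleus and counts the ligated pairs by sequencing, had been carried out on untreated cells of each line with the restriction enzyme MboI. SNU-C1, HCC1954 and OE33 were represented by 1 map each and SW480 by replicates 1 and 2 and by a map without a number. That unnumbered map equalled the sum of both replicates in 99.7% of the bin pairs of chromosome 15 that held read pairs, so it was used as the SW480 map and not counted as another sample. No normal cell was among the samples, and the reference for each line was therefore the other 3 cancer lines.

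Chromothripsis is a catastrophic event in which a chromosome breaks into many pieces that are rejoined in a new order and orientation, with some pieces lost. Such a chromosome is known for copy number that switches back and forth between a few levels along its length, and for junctions in every orientation. In a contact map a junction appears as a corner of strong contact between loci that lie far apart on the reference chromosome, with the contact decaying away from the corner on the joined sides. Topologically associating domains, whose boundaries often carry binding sites of CTCF, and the larger A (active) and B (inactive) compartments are the layers of folding that can be read in the same maps.

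The maps placed 3066725 read pairs on chromosome 15 in SNU-C1, 3538227 in SW480, 2299427 in HCC1954 and 1945090 in OE33, and the SW480 replicates held 1750542 and 1784512. The read pairs were recovered from the corrected values, and all tested values on chromosome 15 came out whole within 0.02. Of the bins, 1865 were usable in all 4 lines, between 20.56 and 102.4 Mb (hg19), and 7 bins that were usable in the other lines were not in SNU-C1. Counting intervals below are exact Poisson intervals at 95% and cover counting error alone.

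To show what the boundaries of this chromosome look like in sequence, a pattern of 12 letters from the CTCF motif (CCAC, any base, AG, any 2 bases, then GGC) was searched on both strands of GRCh37, the assembly of the hg19 bins. It occurred 529 times on chromosome 15 and in 20.6% of the usable bins. It was present in 35.4% of the 48 bins where a boundary of the other lines was kept in SNU-C1, in 26.1% of the 23 where none was kept, in 25% of the 16 boundaries found in SNU-C1 alone and in 15.8% of the 38 bins at junction ends. With the neighboring bin on each side included, the shares were 47.2% of usable bins, 64.6% of kept boundaries, 69.6% of those not kept, 43.8% of those in SNU-C1 alone and 57.9% of junction ends, so the order of kept boundaries and those not kept turned. The following stretches of 60 bases come from the strongest boundaries of each kind that held the pattern outside exons, with the pattern in capitals and each read 5′ to 3′ on the strand that carries it.
kept, chr15:58454255-58454314, plus strand, intronic in ALDH1A2 and AQP9: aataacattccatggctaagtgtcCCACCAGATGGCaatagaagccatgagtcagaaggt
kept, chr15:50608416-50608475, minus strand, intronic in GABPB1: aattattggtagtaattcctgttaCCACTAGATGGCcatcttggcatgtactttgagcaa
not kept, chr15:45906587-45906646, minus strand, intronic in BLOC1S6: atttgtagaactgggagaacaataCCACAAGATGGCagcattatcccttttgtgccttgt
not kept, chr15:74257229-74257288, minus strand, outside protein-coding genes: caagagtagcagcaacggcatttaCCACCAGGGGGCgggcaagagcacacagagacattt
SNU-C1 alone, chr15:99620100-99620159, minus strand, outside protein-coding genes: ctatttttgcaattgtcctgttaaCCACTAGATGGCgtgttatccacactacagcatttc
SNU-C1 alone, chr15:94690559-94690618, minus strand, outside protein-coding genes: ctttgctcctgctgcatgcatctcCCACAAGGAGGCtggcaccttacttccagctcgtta

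The pattern is a description of these letters and not a measured CTCF site. At the bin of the last stretch the insulation score, defined below, was 0.04 in SNU-C1, and lower in SW480 (-0.71) and HCC1954 (-0.36). In OE33 it was 0.05. The bins at junction ends held a median of 104 GATC sites, the sequence cut by MboI, against 102 in all usable bins, and their median GC content was 42.2% against 41.3%.

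Coverage along chromosome 15 of SNU-C1 moved up and down many times. Relative coverage here is the read pairs of a bin within the chromosome, over the autosomal median of the line, divided by the median of that quantity in the other 3 lines, and taken as the median of 200-kb blocks. It was cut into 48 segments in SNU-C1, 19 in SW480, 25 in HCC1954 and 12 in OE33. In SNU-C1, 43 of the 47 steps between segments were at least 0.5 on the log2 scale, with a median step of 0.82, or 1.76-fold. In the other lines 6, 12 and 7 steps reached that size, in the order SW480, HCC1954 and OE33. On the other autosomes of SNU-C1, 28.2% of 649 steps did. Per 100 blocks, chromosome 15 of SNU-C1 had 11.4 such steps, and the other autosomes of the line had between 0.447 and 4.38. The other 3 lines had 1.6 to 3.2 on this chromosome. Their highest values on a single other autosome were 3.1 in SW480, 9.4 in HCC1954 and 5.5 in OE33.

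The level turned at 41 of 46 consecutive steps, so that most rises were followed by a fall. Most steps turned in the other lines too, at 13 of 17 in SW480, 22 of 23 in HCC1954 and 9 of 10 in OE33. SNU-C1 is in the reference of each of these lines, so their relative profiles, segments and steps are not independent of it. At the 47 change points of SNU-C1, each of their relative profiles moved in the same direction at 7. High segments, at or above 1.2, numbered 20 and covered 33.4 Mb with a median level of 1.42. Low segments, at or below 0.83 (1 over 1.2), numbered 15 and covered 18 Mb with a median level of 0.69, and 13 segments lay between these limits. Levels ran from 0.565 to 1.79. The segments nearest to the upper limit had levels of 1.25 and 1.18, and those nearest to the lower limit 0.828 and 0.835. Segments were short, with a median length of 1.2 Mb and a range from 0.4 to 4.6 Mb. The number of segments rested on the block size more than on any other setting, with 13 segments and 12 steps of at least 0.5 in blocks of 400 kb. Against OE33 alone there were 31 segments and 26 such steps.

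Each line's own coverage, with no other line in the denominator, was compared across the same 47 change points. The median absolute step was 0.78 in SNU-C1, 0.13 in SW480, 0.22 in HCC1954 and 0.14 in OE33 on the log2 scale. The direction was that of the relative profile at 44 of the 47 points in SNU-C1, and at 27, 20 and 18 points in SW480, HCC1954 and OE33. SW480 replicates 1 and 2 differed by a median of 0.02 at these points. The points were chosen on the coverage of SNU-C1, so a larger step in that line and the shared direction were largely fixed by the choice.

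**Figure D1:**
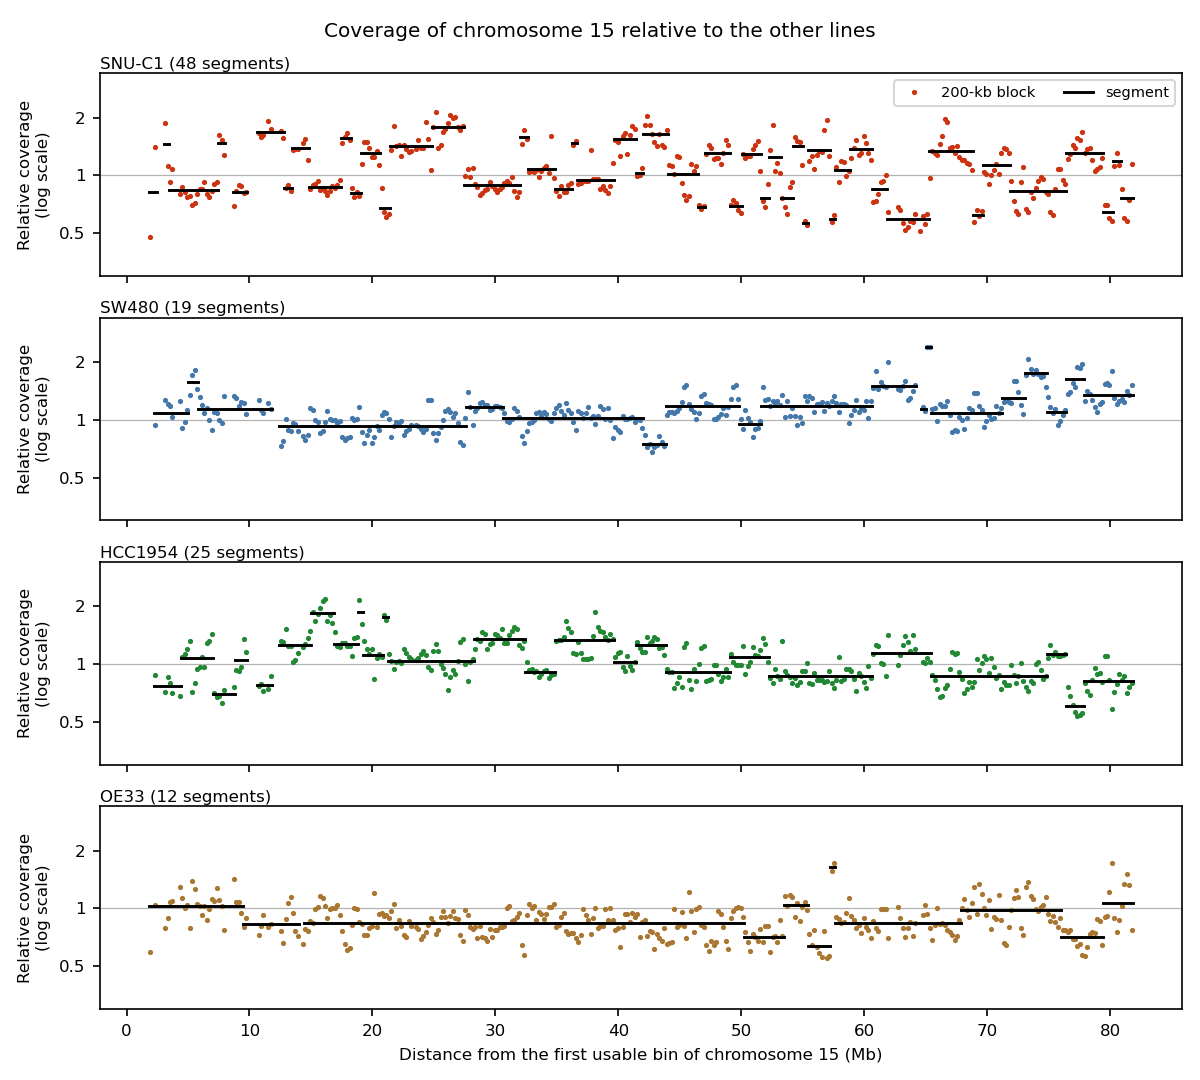
Relative coverage of 200-kb blocks (points, log scale) and segment levels (black lines) along chromosome 15 in each line, against distance from the first usable bin in Mb. SNU-C1 switches between levels from 0.565 to 1.79 over 48 segments, while the other lines have 12 to 25 longer segments.

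Of 32 genes listed for this chromosome, 13 had a relative coverage at or above 1.2 in SNU-C1 and 6 at or below 0.83, while 40.1% and 24.1% of all blocks lay beyond these limits. The value of a gene is the median over its bins and those within 200 kb on each side, which can reach into a neighboring segment. CHRNA7, which encodes a subunit of the nicotinic acetylcholine receptor, had a relative coverage of 1.81 in SNU-C1, with 1.17 in SW480, 0.79 in HCC1954 and 0.83 in OE33. In the same segment, from 31.2 to 33.4 Mb, lay FAN1, a nuclease of interstrand crosslink repair, at 1.67 and GREM1, a secreted antagonist of bone morphogenetic proteins, at 1.69. GREM1 was at 1.39 in HCC1954 and at 0.72 and 0.69 in SW480 and OE33. Each line is in the reference of the others, so these values are not separate gains and losses.

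Further along the chromosome, SPRED1, an inhibitor of RAS signalling, was at 1.58 in SNU-C1 and B2M, the light chain of class I major histocompatibility molecules, was at 1.54. RORA, a nuclear receptor, was at 1.62, while SW480 and HCC1954 were at 1.0 and 0.99. CSK, the kinase that inhibits SRC family kinases, was at 1.52 and its middle lay 25 kb from the nearest junction end. The spindle checkpoint kinase BUB1B was at 1.29 and TP53BP1, a DNA damage response protein, at 1.32.

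Low values were found for PCSK6, a proprotein convertase, at 0.64, for PML, the organizer of PML nuclear bodies, at 0.69, for MEF2A, a transcription factor, at 0.70 and for SMAD3, a transducer of TGF-β signals, at 0.70. UBE3A, a ubiquitin ligase known for its imprinting in neurons, was at 0.77 and SNRPN, of the same imprinted region, was at 0.82. SMAD6, an inhibitor of signalling by the same family, was at 0.99, but its middle lay 34.9 kb from the step that opened the segment of SMAD3. That value thus includes bins before the step. SMAD6 was assigned to the same segment as SMAD3, at 0.69, and the block with its middle at 67.1 Mb was at 0.70. IDH2, BLM, FES and CRTC3 lay in 1 segment and were between 1.01 and 1.07. Coverage of a locus cannot be told apart here into its number of copies and the number of pairs recovered from each copy.

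Joined ends were sought as bin pairs at least 1 Mb apart whose mean contact in a square of 3 by 3 bins was no lower than the average of the whole map for loci 400 kb apart, and no lower than 4 times the value in each other line. In SNU-C1, 96 of 1692569 bin pairs passed, which formed 19 junctions. A junction here is such a contact, and no breakpoint was read in sequence. By the same limits, no junction was found on chromosome 15 in SW480, HCC1954 or OE33. On the other autosomes of SNU-C1, 9.73e-05% of the bin pairs passed, and no other autosome of the line held more than 2 junctions. Single other autosomes held at most 2 in SW480, 6 in HCC1954 and 1 in OE33. The number of junctions depended strongly on the limits. It was 3 with averages over 5 by 5 bins, 50 with read pairs that were not corrected, and 146 when the mean at 1 Mb was taken as the limit. All 19 junctions were among the 146, 18 were among the 50 and all 3 were among the 19. At the lower limit as well, the other lines had 0 junctions. The weakest contact among the junctions was 1.04 times the limit, at 39.80 and 70.60 Mb, and the highest contact that missed it was 0.98, at 73.60 and 90.24 Mb. The lowest ratio to the highest other line was 6.47.

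The 19 junctions held 11695 read pairs in SNU-C1, and the same bins held 219 in SW480 (104 and 115 in its replicates), 111 in HCC1954 and 126 in OE33. The 38 ends lay at 35 sites, after ends within 120 kb were merged, and spread from 31.36 to 102.32 Mb. The joined ends were 1.52 to 43 Mb apart on the reference, with a median of 18.44 Mb. Within 200 kb of the corner, on the joined sides, the contact was 0.142 to 0.393 of the genome-wide mean at the same distance, taken as the sum of both distances from the corner, with a median of 0.223.

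The junction with the most read pairs joined 74.92 to 77.44 Mb, with 1171 read pairs in SNU-C1 (95% interval 1105 to 1240), 26 in SW480, 12 in HCC1954 and 5 in OE33. Its observed/expected (O/E) contact, the value over the genome-wide mean at the same distance, was 17.6 in SNU-C1 and 0.67 in SW480. One end lay in a bin of CLK3, a splicing-associated kinase, and EDC3, a decapping enhancer, and the other in PEAK1, a pseudokinase of the cytoskeleton.

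A much longer distance was bridged by the next, from 38.76 to 64.52 Mb, with 962 read pairs in SNU-C1 (902 to 1025) and 2, 3 and 1 in SW480, HCC1954 and OE33. Its O/E was 184 in SNU-C1 and 0.56 in SW480. FAM98B and RASGRP1, an activator of RAS in lymphocytes, overlapped one bin and CSNK1G1, a casein kinase, the other. The junction of 42.32 and 52.60 Mb had 801 read pairs (746 to 858) against 6, 2 and 2. It brought the phospholipase genes PLA2G4E and PLA2G4D to the myosin gene MYO5A.

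At 31.36 Mb, in TRPM1, a cation channel of retinal bipolar cells and melanocytes, contact with 38.12 Mb was carried by 779 read pairs in SNU-C1 (725 to 836) and by 9, 7 and 3 in the other lines. The bin at 38.12 Mb held no protein-coding gene. SPG11 and PATL2 at 44.92 Mb were joined to DAPK2, a kinase linked to cell death, at 64.24 Mb with 761 read pairs (708 to 817), against 5, 0 and 3. The former lay 67.3 kb from the middle of B2M.

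The pair at 60.44 and 62.64 Mb also had 761 read pairs in SNU-C1, with 38, 18 and 24 in the other lines, and its ends are 2.2 Mb apart. Neither bin held a protein-coding gene, and RORA lay between them. The pair at 73.08 and 77.28 Mb, the latter in PSTPIP1, an adaptor of the cytoskeleton, had 674 read pairs (624 to 727) against 18, 2 and 8. At 64.36 and 69.48 Mb there were 670 (620 to 723) against 23, 12 and 5, and the bins overlapped DAPK2, CIAO2A and SNX1 on one side and GLCE, an enzyme of heparan sulfate synthesis, on the other.

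The last 2 of the 10 junctions with the most read pairs were 58.28 with 73.20 Mb, which had 606 read pairs (559 to 656) against 6, 5 and 10, and 63.48 with 92.08 Mb, which had 578 (532 to 627) against 5, 2 and 0. The former opened in ALDH1A2, an enzyme of retinoic acid synthesis, and the latter in RAB8B, a small GTPase of vesicle transport. That SNU-C1 lay above every other map in all 10 was fixed by the limits used to find them. The other 9 junctions had 131 to 546 read pairs in SNU-C1 and at most 57 in any other map, that maximum being in SW480 at 99.92 and 101.44 Mb, the shortest of all.

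**Figure D2:**
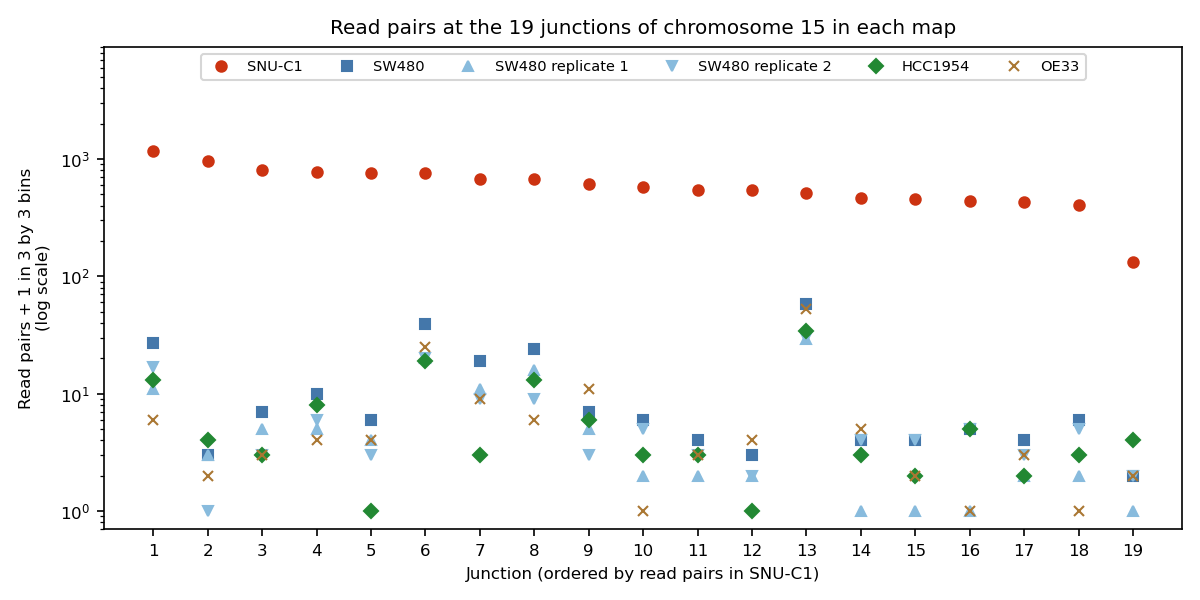
Read pairs plus 1 (log scale) in the 3 by 3 bins of each of the 19 junctions, ordered by SNU-C1, in SNU-C1, SW480, its replicates, HCC1954 and OE33. SNU-C1 ranges from 131 to 1171 read pairs and lies above every other map at each junction, as the limits that chose them require.

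The remaining junctions, in falling order of read pairs, were 70.76 with 101.20 Mb, 75.04 with 102.32 Mb, 99.92 with 101.44 Mb, 65.64 with 90.24 Mb, 55.04 with 73.48 Mb, 39.80 with 70.60 Mb, 53.12 with 96.12 Mb, 76.08 with 101.04 Mb and 75.52 with 93.16 Mb. The end at 75.04 Mb fell in the bin of CSK, and that at 101.44 Mb in ALDH1A3, another enzyme of retinoic acid synthesis. The widest junction, from 53.12 to 96.12 Mb, had an O/E of 375 in SNU-C1 and 2.22 in SW480.

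All orientations were present. After subtraction of the mean of the other lines, the strongest of the 4 quadrants of 10 by 10 bins around each corner gave the sides that were joined. Left and left sides were joined in 5 junctions and right and right sides in 7, both inversion-like. The left side of the lower position and the right side of the higher one were joined in 5, which is deletion-like, and the reverse in 2, which is duplication-like. In 9 junctions the strongest quadrant was at least 1.5 times the next, and these held 4 deletion-like, 1 duplication-like, and 2 and 2 inversion-like junctions. The sides were the same for 18 of 19 junctions with quadrants of 5 by 5 bins and for 17 with 20 by 20 bins. The names describe sides alone, since on a chromosome with many pieces a deletion-like junction need not be a deletion.

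**Figure D3:**
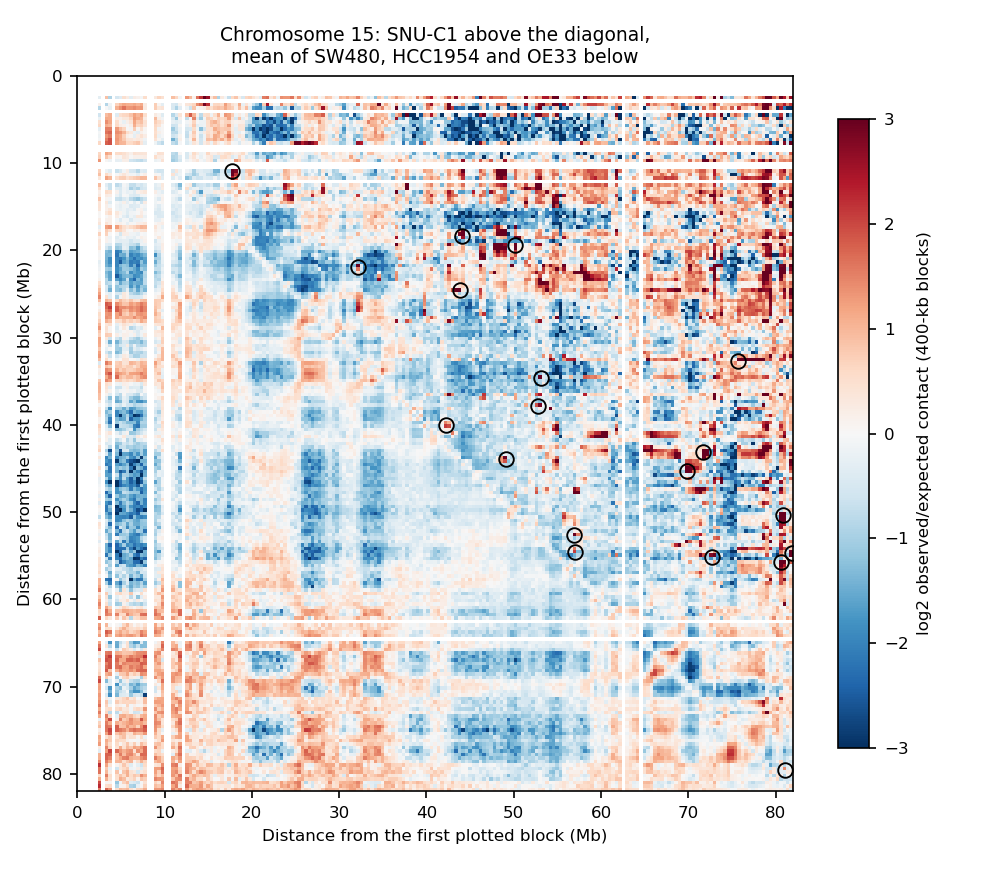
Log2 O/E contact between 400-kb blocks of chromosome 15, for SNU-C1 above the diagonal and the mean of SW480, HCC1954 and OE33 below it, by distance from the first plotted block in Mb. Circles mark the 19 junctions, whose ends are 1.52 to 43 Mb apart, so that some lie close to the diagonal and others far from it.

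Junction ends lay close to steps of coverage. Of the 38 ends, 28 lay within 400 kb of a change point, as did 44% of the blocks of the chromosome, and the median distance was 260 kb. Within 200 kb the counts were 16 of 38 ends and 23.3% of blocks. Coverage on the joined side was higher than on the other side at 27 of 38 ends, with medians of 1.37 and 1.02, and it was at or above 1.2 at 29 ends, compared with 40.1% of all blocks. At the 18 ends of junctions with a clear strongest quadrant it was higher at 13, with medians of 1.37 and 1.11. The joined side was chosen by extra contact that also counts toward coverage, so this difference was partly fixed by the choice. Junction contact enters the coverage on which steps were found, so the closeness of ends to steps is not independent either.

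Some joined ends faced each other across a short stretch, so that a stretch with 2 new neighbors was outlined. There were 8 such pairs within 3 Mb. They rest on the joined sides, for which the strongest quadrant was clear in 9 of the 19 junctions. The stretches from 77.28 to 77.44 Mb and from 101.04 to 101.20 Mb were 0.16 Mb long, shorter than the 10 bins of a quadrant. The piece from 38.12 to 38.76 Mb, 0.64 Mb long with a relative coverage of 1.58, held SPRED1. On one side it was joined to 31.36 Mb and on the other to 64.52 Mb. These partners are 33.16 Mb apart on the reference and were not among the 19 junctions as a pair. Their contact had an O/E of 21.1 and 70 read pairs in SNU-C1, while the O/E was 1.02 in SW480, 0 in HCC1954 and 0.52 in OE33.

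Similar contact between the partners was seen for the piece from 101.04 to 101.20 Mb, whose partners at 70.76 and 76.08 Mb had an O/E of 14.1 in SNU-C1 (144 read pairs) and 0.93, 0.62 and 0.46 in SW480, HCC1954 and OE33. For the piece from 63.48 to 64.24 Mb, with partners at 44.92 and 92.08 Mb, the O/E was 13.5 (27 read pairs) against 2.95, 1.04 and 0.96. The stretch from 70.76 to 73.08 Mb, which is not 1 segment since a low one from 72.2 to 72.8 Mb (0.77) lies inside it, had partners at 77.28 and 101.20 Mb with an O/E of 6.54 (24 read pairs) against 0.24, 1.68 and 1.45. The partners of the other 4 stretches had an O/E between 0.40 and 2.32 in SNU-C1, which was not above the highest of the other lines. With limits of an O/E of at least 4 and 4 times each other line, 3 of the 8 partner pairs passed, as did 1.72% of the bin pairs of the chromosome at least 1 Mb apart.

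**Figure D4:**
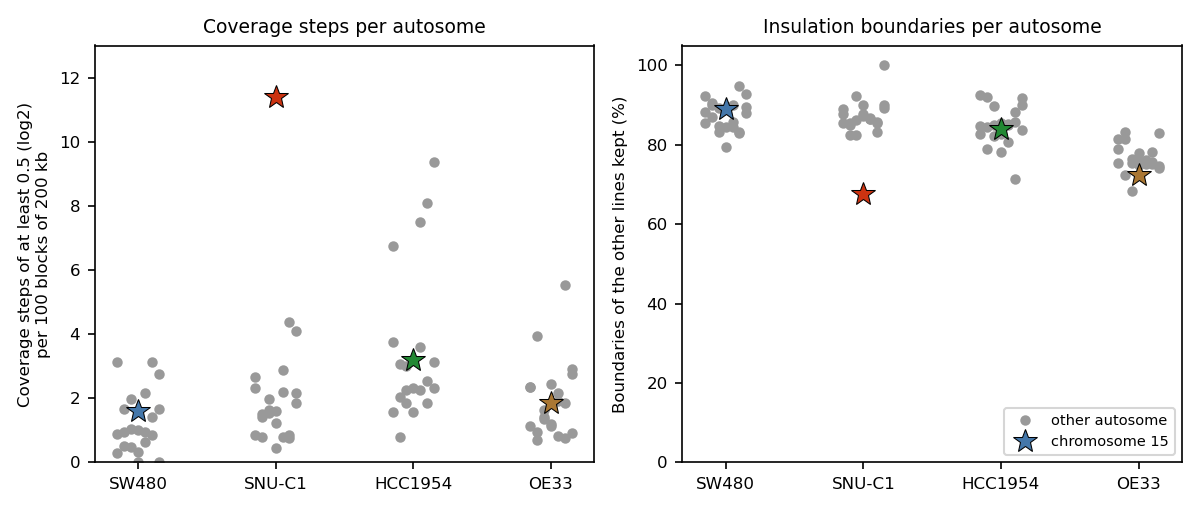
Coverage steps of at least 0.5 (log2) per 100 blocks of 200 kb (left) and percent of the boundaries of the other 3 lines that were kept (right), for chromosome 15 (stars) and each other autosome (gray points) in the 4 lines. Chromosome 15 of SNU-C1 lies at 11.4 steps and 67.6% of boundaries, outside the values of the other autosomes of SNU-C1.

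Contact across the junction ends was lower in SNU-C1 than in the other lines. The mean O/E contact of the bins up to 1 Mb on the left with those up to 1 Mb on the right was compared with the mean of the other lines. At the 36 ends with a value the median log2 ratio was -0.35, with a range from -0.88 to 0.16, and at all positions of chromosome 15 it was -0.23. The medians of the other autosomes of SNU-C1 ran from -0.27 to 0.24, and the lowest was on chromosome 13, where no junction was found. Over 480 kb on each side the medians were -0.55 and -0.17. The log2 ratio of SW480 replicate 1 over replicate 2 had an SD of 0.04, which covers replicates of 1 line and not the spread between lines. The lowest ends were at 44.92 Mb, at -0.88, at 63.48 Mb, at -0.85, and at 64.36 Mb, at -0.83. A log2 ratio at or below -0.5 was found at 11 of the 36 ends and at 17.5% of all positions of the chromosome, and at 1.82% of the positions of the other autosomes of SNU-C1, where the highest single autosome had 10.2%. SW480, HCC1954 and OE33 had 2.17%, 0.235% and 1.58% on this chromosome. On other chromosomes of SW480, HCC1954 and OE33 this share reached 30.6%, 38.3% and 35.8%.

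A smaller share of boundaries was kept on chromosome 15 of SNU-C1 than on any other of its autosomes. Boundaries were the minima of the insulation score, the log2 contact across a bin within 1 Mb over its mean, in the mean of the other 3 lines, and were kept where the tested line had such a minimum within 2 bins. In SNU-C1, 48 of 71 boundaries were kept, or 67.6%. On its other autosomes 86.8% of 2308 were kept, with 82.5% as the lowest share. With the same procedure chromosome 15 kept 64 of 72 boundaries in SW480, 63 of 75 in HCC1954 and 55 of 76 in OE33, whose other autosomes kept 86.8%, 85.2% and 76.8%. The lowest share on a single other autosome of these lines was 79.5%, 71.4% and 68.4%. SW480 replicate 1 kept 71 of the 74 boundaries of replicate 2. Chromosome 15 also had the lowest share among the autosomes of SNU-C1 with windows of 480 kb, with a tolerance of 1 bin and with a strength of 0.2. The gap nearly closed with 480 kb, at 78.5% against 79.1% on the next autosome, while it was 54.9% against 73.3% and 65.2% against 80.7% with the other settings.

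Of the 23 boundaries not kept, 10 had a minimum 120 to 200 kb away and 6 had none within 400 kb. At those 23 the insulation score was not weaker in SNU-C1, with a median of -0.59 against -0.43 in the mean of the other lines, and their median strength in the other lines was 0.41, against 0.64 for those kept. Within 500 kb of a junction end or coverage step 33 of 52 were kept, and farther away 15 of 19. With the positions taken from SNU-C1, the counts were 48 of 55 and 16 of 17 in SW480, 48 of 56 and 15 of 19 in HCC1954, and 43 of 56 and 12 of 20 in OE33. By level, 21 of 33 were kept in high segments, 6 of 14 in low ones and 21 of 24 in segments between.

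Kept boundaries and those not kept lay in runs. From 48.60 to 67.64 Mb, over 19.04 Mb with 11 junction ends and 11 coverage steps, 23 neighboring boundaries were all kept. In that stretch SW480, HCC1954 and OE33 kept 24 of 25, 23 of 25 and 20 of 25 boundaries. Each of these sets came from the mean of the other 3 lines, SNU-C1 included, so the sets differ from that of SNU-C1. From 71.04 to 75.64 Mb, with 6 junction ends and 5 steps, none of 7 neighboring boundaries was kept. There SW480, HCC1954 and OE33 kept 5 of 7, 4 of 6 and 3 of 5 boundaries, from sets made in the same way with SNU-C1 included. That stretch holds PML and CSK. The runs were picked as the longest after the values were seen.

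SNU-C1 had 16 boundaries that no other line had within 2 bins, compared with 5 in SW480, 6 in HCC1954 and 6 in OE33. Of these, 9 lay within 200 kb of a junction end or step, as did 34.4% of the bins. The counts near the same positions were 0 of 5, 0 of 6 and 2 of 6 in the other lines. Of the 16, the one with the highest boundary strength was at 99.60 Mb, between IGF1R and MEF2A, where the insulation score was -0.91 in SNU-C1 and -0.29, -0.24 and -0.37 in SW480, HCC1954 and OE33. At 45.20 Mb, beside B2M and the end at 44.92 Mb, the score was -1.63 in SNU-C1 and -0.58, -1.0 and -1.07 in the other lines. At 74.92 Mb, an end of the junction with the most read pairs, it was -1.07 against -0.18, -0.45 and -0.48. SNU-C1 did not have the lowest score at all 16, as at least 1 other line scored lower at 26.48, 52.20, 73.00, 85.80, 87.52 and 94.68 Mb. At 26.48 Mb the score was 0.78 in SNU-C1 and 0.31, 0.50 and 0.52 in SW480, HCC1954 and OE33. At 94.68 Mb it was 0.04 in SNU-C1 and -0.71, -0.36 and 0.05 in the other lines.

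Compartments were kept in most blocks. They were scored from contacts with other chromosomes, as the log2 ratio of contact with A blocks over B blocks, in SNU-C1, HCC1954 and OE33, since the maps of SW480 held almost no such contacts. HCC1954 and OE33 gave the same side for 343 blocks of chromosome 15, and SNU-C1 shared it in 317, or 92.4%, compared with 90.5% of 10773 blocks on its other autosomes. It kept 203 of 214 A blocks and 114 of 129 B blocks. In blocks of high coverage 129 of 139 were kept, and 69 of 80 in blocks of low coverage. Among the 26 changed blocks 15 moved to A, and their median absolute score was 0.17, against 0.74 in kept blocks. Every scored block was kept in 34 of the 48 segments, and in 3 of the 11 segments that held at least 2 A and 2 B blocks.

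The 26 changed blocks spread from 23.6 to 101.0 Mb. From 36.6 to 37.2 Mb, near MEIS2, a homeobox gene, 4 adjoining blocks were A in HCC1954 and OE33 and B in SNU-C1. The lowest of them scored -1.05 in SNU-C1 and 0.33 and 0.12 in HCC1954 and OE33. SW480, the other colon line, was on the B side there as well by the first eigenvector within the chromosome, with -1.53 at that block. In RORA at 61.0 Mb a block was A in SNU-C1, at 0.57, and B in HCC1954 and OE33, at -0.11 and -0.03. SW480 was on the A side there too, with an eigenvector of 0.40. These differences were thus not particular to SNU-C1. Pearson's r over the 375 blocks was 0.88 with HCC1954 and 0.90 with OE33, and 0.93 between those 2 lines. Neighboring blocks share reads and sequence, so these are descriptions.

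The first eigenvector of contacts within the chromosome, the usual measure of compartments, was less alike. Over 375 blocks r was 0.77, 0.71 and 0.72 between SNU-C1 and SW480, HCC1954 and OE33, while it was between 0.84 and 0.96 among these 3 lines and 0.99 between the SW480 replicates. With the eigenvector 286 of 347 sides were kept, or 82.4%, against 87.8% on the other autosomes. By contacts with other chromosomes in blocks of 400 kb the shares were 89.8% and 90.6%. By contacts with other chromosomes in blocks of 200 kb, chromosome 15 lay within the range of the single other autosomes, 86.5 to 95.9%. By the eigenvector that range was 59.4 to 97.4%, and its lowest share was that of chromosome 5. There the eigenvector of SNU-C1 had an absolute r of 0.13 with gene starts, against 0.45 on chromosome 15. Apart from chromosome 5, every other autosome had a higher share by the eigenvector than chromosome 15. The highest share was that of chromosome 21, where the absolute r was 0.06 in HCC1954. Coverage and compartment were almost unrelated in SNU-C1, with r = -0.06 between log2 coverage and the mean compartment score of HCC1954 and OE33 over 375 blocks.

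**Figure D5:**
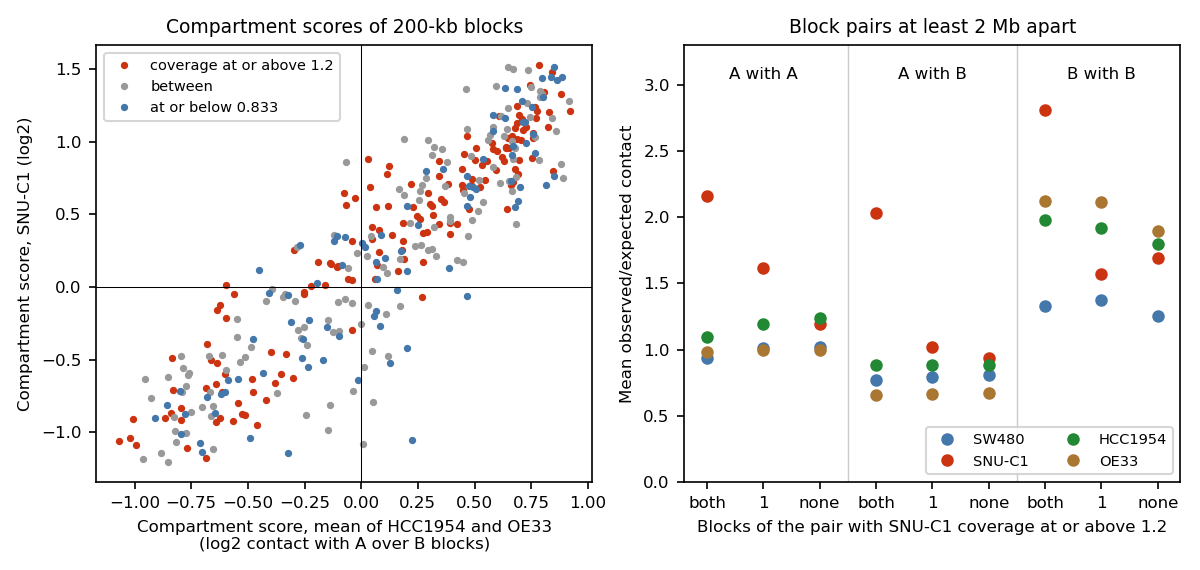
Left, compartment score of each 200-kb block in SNU-C1 against the mean of HCC1954 and OE33, colored by coverage in SNU-C1. Right, mean O/E contact of block pairs at least 2 Mb apart by compartment and by how many of the blocks had a coverage at or above 1.2. Scores of SNU-C1 follow those of the other lines (r of 0.88 with HCC1954 and 0.90 with OE33). Its mean contact is higher where both blocks are high in coverage, at 2.16, 2.03 and 2.81 for A with A, A with B and B with B. The medians of these pairs are 1.22, 1.03 and 1.94, and the same contacts count toward coverage.

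Mean contact across the chromosome in SNU-C1 was higher between segments of high coverage. Coverage was counted from pairs within the chromosome in the same map, so these contacts also add to it. Over the 10634 block pairs at least 2 Mb apart in which both blocks were at or above 1.2, the mean O/E was 2.18 in SNU-C1 and 0.90, 1.11 and 0.97 in SW480, HCC1954 and OE33. With 1 such block it was 1.32 in SNU-C1, and with none 1.15, while the medians were 0.72 and 0.80. The replicates of SW480 gave 0.92 and 0.90 where both blocks were high. Where both were high, medians were closer than means, at 1.2 in SNU-C1 and 0.81, 0.92 and 0.76 in the other lines. The mean between A and B blocks that were both high was 2.03 in SNU-C1 and 0.65 to 0.89 in the other lines. By the median it was 1.03 in SNU-C1, against 1.22 for A with A and 1.94 for B with B. The values had been iteratively corrected, and an effect of coverage on these contacts was not tested.

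Block pairs specific to SNU-C1, with an O/E of at least 4 and 4 times each other line after 0.5 was added to each O/E, made up 1240 of 66933 on chromosome 15, or 1.85%, and 0.173% on its other autosomes. Among block pairs with at least 10 read pairs in SNU-C1, 1208 of 23576 on chromosome 15 were specific, with 9.14% within 2 Mb of a junction at both ends and 4.59% elsewhere. Among all tested pairs the share was 0.253% at 2 to 5 Mb, 0.699% at 5 to 10 Mb, 1.06% at 10 to 20 Mb, 2.75% at 20 to 40 Mb and 2.41% at 40 to 80 Mb. At 2 to 5 Mb SNU-C1 had the lowest mean O/E of the 4 lines, 0.81 against 0.88 in SW480, 0.94 in HCC1954 and 0.91 in OE33, and at 5 to 10 Mb its 0.96 lay within the range of the others. At 40 to 80 Mb the mean O/E was 2.07 in SNU-C1, 1.11 in SW480, 1.58 in HCC1954 and 1.4 in OE33. Both blocks were high in 455 of the 1240 and in 10634 of the 66933 tested, and the specific share was 4.28% of such pairs, against 0.946% where neither was high. High coverage was counted on the same map, which includes these contacts. Only a part lay at the junctions, as 255 were within 2 Mb of a junction at both ends, where 8.96% of all tested block pairs lay. The other 985 lay away from the 19 junctions found at these limits.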

How the data were processed

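The deposited values were signal, namely 40-kb Hi-C contact values (hg19) that the authors had made with BWA and Picard and iteratively corrected. Whole read pairs were recovered from them with 1 factor per bin. Bins were usable at 25% or more of the typical coverage of the map, in all 4 lines. Relative coverage was cut by optimal partitioning with a penalty of 4, in blocks of 200 kb and segments of at least 2 blocks. Insulation used a window of 1 Mb, a delta window of 200 kb and a strength of at least 0.1. Compartment scores used the blocks of the other autosomes, with A and B taken from SW480.

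Calculations ran in numpy 2.4.6 and scipy 1.17.1 under Python 3.11.15, and the procedures were tested on simulated data. Replicate maps, which the study describes as biological, were used for SW480 alone, and the other lines had 1 map each, so no p-value is given. The chromosome, its genes and the limits were chosen with earlier results of these data known. Named genes were 32 listed genes and those that overlapped the bins of the 10 junctions with the most read pairs. Pairs between chromosomes made up 0.217% of the SW480 map and 14.8 to 36.6% of the maps of the other lines.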

Additional observations from a re-analysis of the deposited data

How the results depend on the processing

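Of 63 alternative values, 50 stayed within 1.5 times the value given or the spread used for it, and 13 moved further. In blocks of 400 kb there were 13 segments, 12 steps of at least 0.5 and 159 kept compartment sides (of 177). Junctions numbered 146 with the mean at 1 Mb as the limit, 3 with averages of 5 by 5 bins and 50 without correction. Within 200 kb of a step lay 16 of 38 ends. Contact across ends was -0.55 over 480 kb, and boundaries kept with a window of 480 kb were 73 of 93. Within 4 Mb of a junction at both ends, 513 of 19660 block pairs were specific, or 2.61%. Within 2 Mb it was 255 of 5998, or 4.25%. Alternatives chosen after seeing the data gave 31 segments and 26 steps against OE33 alone, and 193 of 292 ends near a step with the 146 junctions. The cause of these differences was not tested.

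Without either SW480 replicate there were 48 segments, 43 steps, 19 junctions, 12 inversion-like junctions, 28 ends at steps, 48 to 49 boundaries kept, 313 to 317 compartment sides and 249 to 252 specific block pairs near junctions, and contact across ends was -0.36 to -0.35. The listed genes numbered 13 at or above 1.2 and 6 at or below 0.83. No paired analysis was possible because only SW480 had replicate maps here. The other lines held 0 to 57 read pairs at the junctions, and no comparison at matched depth was run.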

Other observations

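Contacts of chromosome 15 with other chromosomes were counted as well, in SNU-C1, HCC1954 and OE33. Among 181078 pairs of a 1-Mb block of chromosome 15 with one of another autosome, 0 in SNU-C1 had an O/E of at least 4 and 4 times both HCC1954 and OE33, with a median of 5 read pairs per pair of blocks. HCC1954 had 150, with the same median depth, and the highest of them joined 26 Mb of chromosome 15 to 26 Mb of chromosome 11 with an O/E of 104 and 394 read pairs. OE33 had 0, with a median of 11 read pairs per pair of blocks. With limits of 2 in place of 4, SNU-C1 had 1634, HCC1954 1144 and OE33 111 such pairs, without matching of depth.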
